A study of Mus musculus with 17 samples.

Results

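Complement is a cascade of plasma and cell-surface proteins. The 9 genes C3, C4b, C2, Cfb, Cfi, Cd55, Serping1, C1s1 and C1ra were followed in mouse kidney among the 42794 genes of the deposited table. They were taken by gene symbol, and each symbol matched a single gene. The list was chosen by the FPKM of complement genes in all 3 groups, so the differences between groups in these 9 genes are given as a description, with fitted sizes and errors but no p-value. C3, the central component, averaged 2.51 FPKM in control kidneys, 40.8 in Ctr shRNA kidneys and 19.2 in those labelled Gcgr shRNA. None of the other 8 genes moved by nearly as much, and Cfb, the partner of C3 in the alternative pathway, was lower in Ctr shRNA.

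RNA from whole kidney was sequenced in 17 libraries. The control group (n = 4) has titles beginning NC and a WT genotype. The group called Ctr shRNA (n = 6) takes that name from its genotype label, but its titles read DKD_Vehicle, so the labels do not settle whether these mice received a control hairpin or a vehicle. Gcgr shRNA (n = 7), titled DKD_shRNA, carries a hairpin against the glucagon receptor that was aimed at proximal tubule cells. The series is about diabetic kidney disease, which DKD presumably abbreviates. The sources used here do not give the strain, age, means of inducing disease or hairpin delivery. Each library is named by its title's number, and since no label ties libraries to separate animals, the errors measure the spread between these samples.

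Values are in FPKM, which divides fragments by gene length and library size, so levels can be compared between genes, except where genes share sequence. Recovered reads ranged from 13997657 to 17107876 per library. The library size that the values imply was 0.949 (Gcgr shRNA 32) to 1.15 (Ctr shRNA 20) times those reads. The sources used here do not give how that size was set. Gcgr itself, the hairpin's target, averaged 20.8 FPKM (SD 2.42, n = 4) for control, 9.74 (SD 2.14, n = 6) for Ctr shRNA and 13.02 (SD 1.70, n = 7) for Gcgr shRNA. Thus its mean was not lowest in the group labelled with the hairpin, though the DKD groups overlapped and both lay below every control. Whole kidney also holds cells other than proximal tubule cells, so these values do not settle whether the hairpin acted. That group is therefore called by its label only. Proximal tubule markers summed to 1886 to 3414 FPKM in every library, so the markers of the labelled tissue were present. Their median sum was 3122 FPKM in control, 2229 in Ctr shRNA and 2254 in Gcgr shRNA. Called lower than control (limma) were 3 and 1 of the 7 markers, beside 3.91% and 0.595% of all tested genes. Hepatocyte markers summed to 10.7 to 27.02 FPKM, most of it Apoa2 (7.49 to 23.1) and Alb (2.25 to 4.76), while Ahsg was at 0 to 0.0899. The library Ctr shRNA 20 stood apart, with the fat hormone gene Adipoq at 45.3 FPKM and the bladder-lining gene Upk3a at 56.8 FPKM. No extraction or sequencing batch is given in the labels.

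Complement starts along 3 routes. In the classical route the recognition protein C1q activates the proteases encoded by C1ra and C1s1, which cleave the products of C4b and C2 to form an enzyme, a convertase, that splits C3. In the alternative route the product of Cfb binds to deposited C3 and makes a convertase that amplifies the cascade. Serping1 encodes the inhibitor of the C1 proteases, Cd55 a membrane protein that dissociates convertases, and Cfi a protease that inactivates deposited C3 and C4 fragments. Most plasma complement is made in liver, and kidney tubule cells are known to make C3 locally.

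The promoter sequences below are shown because promoters are where transcription factors can act. They set C3, the gene that changed most, beside Cd55, called different only in Gcgr shRNA, and C1s1, not called different. The choice was limited by the windows at hand. RefSeq promoter windows (build GRCm38.p6) were matched for 4 of the 9 genes, C3, Cd55, C1s1 and C1ra. The C1ra window reaches into the annotated gene and is not printed, and it held no match to the 5 motifs named below. Those printed are the 250 bases before the start site, on the minus strand, at chr17:57228137-57228386 for C3, chr1:130462745-130462994 for Cd55 and chr6:124542360-124542609 for the upstream start of C1s1. Capitals mark matches, on either strand, to 5 motifs searched. These were GGG and CC with 5 bases between them for NF-kB, GAAA repeated after 2 bases for interferon response elements, TTCNNNGAA for STAT factors, TTNNGCAA for C/EBP factors and TATAAA for the TATA box.
C3: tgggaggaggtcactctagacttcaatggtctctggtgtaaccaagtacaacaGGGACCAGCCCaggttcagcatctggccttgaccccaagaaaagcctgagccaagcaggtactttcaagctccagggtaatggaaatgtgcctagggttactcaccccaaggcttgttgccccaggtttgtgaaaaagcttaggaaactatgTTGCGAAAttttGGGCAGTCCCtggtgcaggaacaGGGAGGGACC
Cd55: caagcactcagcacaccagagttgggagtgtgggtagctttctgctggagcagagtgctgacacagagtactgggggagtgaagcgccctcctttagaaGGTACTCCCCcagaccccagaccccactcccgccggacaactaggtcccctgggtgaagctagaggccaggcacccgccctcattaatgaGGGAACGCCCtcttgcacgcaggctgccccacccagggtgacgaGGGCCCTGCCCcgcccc
C1s1: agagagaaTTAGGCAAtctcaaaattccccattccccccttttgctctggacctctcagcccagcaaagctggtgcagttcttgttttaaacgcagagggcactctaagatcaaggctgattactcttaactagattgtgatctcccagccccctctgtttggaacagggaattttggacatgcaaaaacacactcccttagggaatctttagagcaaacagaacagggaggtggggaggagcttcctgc
The C3 window held the NF-kB letters in 3 stretches, at positions -197 to -187, -33 to -24 and -10 to -1 from the start site. Several of these matches overlap on opposite strands. It also held 1 match to TTNNGCAA, at -45 to -38. The Cd55 window held the NF-kB letters in 3 stretches, at -151 to -142, -61 to -52 and -17 to -7. The C1s1 window held 1 match to TTNNGCAA, at -242 to -235, and none to the NF-kB letters. The window of a further C1s1 start site, 124542322 to 124542571, held 1 match to the NF-kB letters, at -35 to -26, and none to TTNNGCAA. This window, like that of C1ra, reaches into the annotated gene, and its match lies inside the gene. The content for C1s1 thus depends on the start site taken. The NF-kB letters occur in 45.8% of the 32851 RefSeq windows of this length and TTNNGCAA in 9.56%, so the former is common. None of the 3 windows printed held the interferon element letters (2.98% of windows), TTCNNNGAA (7.02%) or TATAAA (12.4%). These matches describe letters and show no binding.

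C3 (ENSMUSG00000024164, GRCm38 chromosome 17, 57203970 to 57228136, minus strand) was low in every control kidney and high in every other one. Controls 37, 38, 39 and 41 were at 2.62, 1.83, 2.77 and 2.84 FPKM. Ctr shRNA libraries ran from 22.05 FPKM through a median of 46.0 to 52.2. Those labelled Gcgr shRNA ran from 10.6 through a median of 17.2 to 33.5. Thus the lowest library outside control was several times the highest control, and the other groups overlapped each other. Library 19, at 22.05 FPKM, and library 20, at 31.3, lay below the remaining Ctr shRNA libraries, which were at 45.5 or more. Among those labelled Gcgr shRNA, library 13 was highest and 5 of 7 lay below every Ctr shRNA library.

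The SD of C3 was 0.467 FPKM about the control mean of 2.51 (n = 4), 11.6 about the Ctr shRNA mean of 40.8 (n = 6) and 7.81 about the Gcgr shRNA mean of 19.2 (n = 7). The ratio of means was 16.2 for Ctr shRNA over control and 7.62 for Gcgr shRNA over control. Fitted with limma on log2(FPKM + 1), a scale that understates changes of low genes, the difference was 3.53 ± 0.27 (log2, SE) for Ctr shRNA and 2.44 ± 0.26 for Gcgr shRNA against control. Of the 13279 genes tested, C3 had the highest fitted rise in Ctr shRNA and the 2nd highest in Gcgr shRNA; both comparisons share the control libraries. By mean FPKM it went from rank 9455 of 42794 genes in control to rank 1295 in Ctr shRNA and 2593 in Gcgr shRNA. In whole tissue, a change in the number of cells that make a transcript and a change in transcript per cell cannot be told apart.

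Between the DKD groups C3 was lower in the libraries labelled Gcgr shRNA, by a ratio of means of 0.470 and a fitted difference of -1.08 ± 0.23. Only 6 genes had a larger fitted fall. The adjusted p did not pass 0.05 for C3 in this comparison, in the fit reported or in any of the 25 alternatives run, where the difference lay between -1.24 and -0.96. No gene passed that threshold in this comparison (0%), whereas 7.32% of genes, C3 among them, had an unadjusted p under 0.05. In control libraries the summed FPKM of the 9 genes contained 6.45% C3, in Ctr shRNA 48.2% and in Gcgr shRNA 31.4%. The other 8 genes together summed to 36.2, 44.2 and 40.6 FPKM in those groups.

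**Figure D1:**
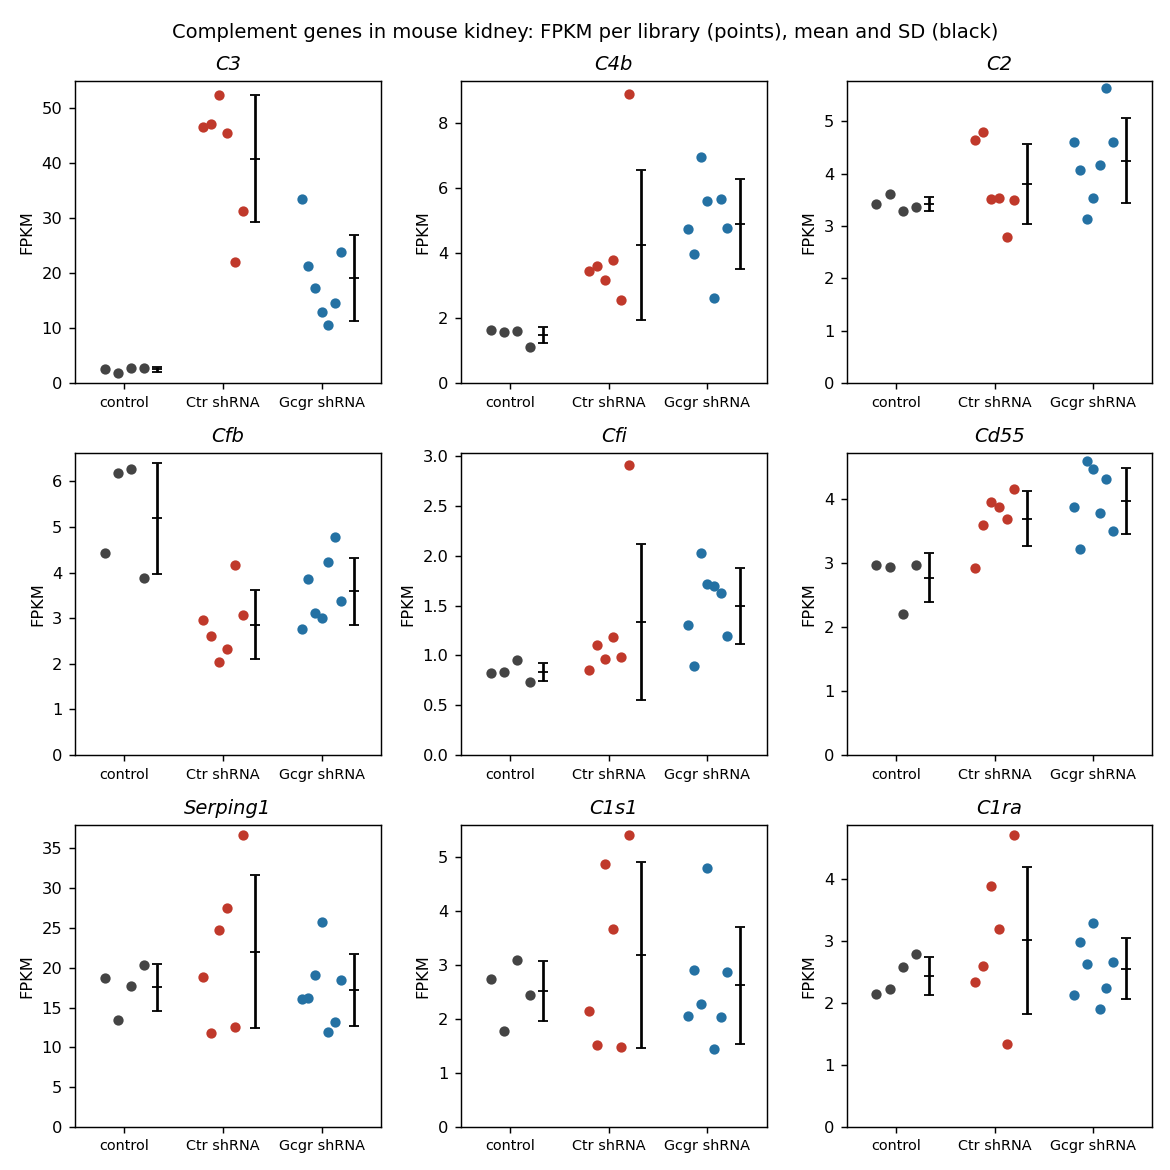
FPKM of each of the 9 complement genes (vertical axes, linear, from 0) in every library of the 3 groups, with the group mean and SD in black. C3 in control stays at or below 2.84 FPKM and elsewhere is at 10.6 or more, while Serping1, C1s1 and C1ra overlap in all 3 groups.

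A gene is called different here when its limma p, adjusted by Benjamini-Hochberg over all 13279 tested genes, is under 0.05. All 9 genes passed the filter for testing, which asked for 1 FPKM in at least 4 libraries. In Ctr shRNA against control 3 of the 9 were called, C3 and C4b higher and Cfb lower, beside 7.49% of all genes tested (3.58% higher and 3.91% lower). In Gcgr shRNA against control 3 were called, C3, C4b and Cd55, all higher, beside 2.02% of all genes (1.42% higher and 0.595% lower). With limma voom the members called were 3 and 2, beside 7.97% and 1.78% of all genes. Between the DKD groups 0 of the 9 were called, by limma-trend or limma voom, beside 0% of all genes; at an unadjusted p under 0.05 it was 1, C3. The groups did not overlap, with control lower, in 2 of the 9 in Ctr shRNA (C3 and C4b) beside 4.71% of all genes, and in 3 of the 9 in Gcgr shRNA (these and Cd55) beside 3.31%. The choice of the 9 used these values, so the counts are a description. Without C3 the median fitted difference of the other 8 was 0.19 in Ctr shRNA against control and 0.14 in Gcgr shRNA against control, beside medians of 0.01 and 0.00 over all tested genes.

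**Figure D2:**
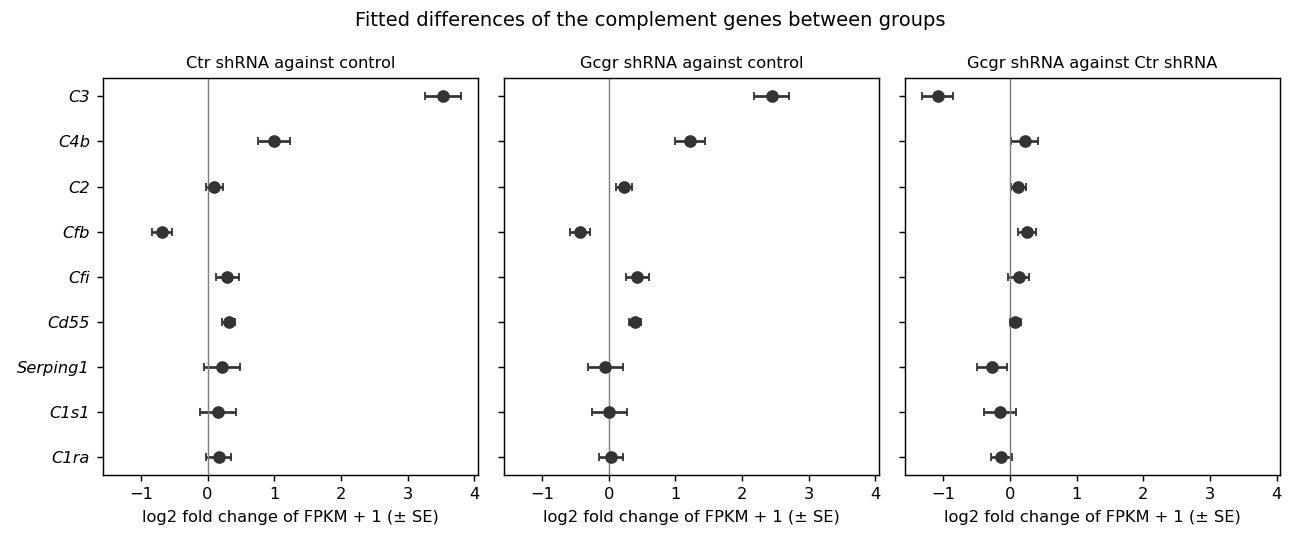
Fitted log2 differences of FPKM + 1 (horizontal axis, points; bars are the SE) for the 9 genes in the 3 comparisons. C3 stands at 3.53 and 2.44 against control and at -1.08 between the DKD groups, and C4b at 1.00 and 1.22 against control.

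C4b, which encodes the C4 component of the classical and lectin convertase (chromosome 17, 34728380 to 34743882), was the other gene higher in both DKD groups without overlap. Controls 37, 38, 39 and 41 were at 1.62, 1.56, 1.62 and 1.11 FPKM. In Ctr shRNA it ran from 2.57 FPKM through a median of 3.53 to 8.90, and in Gcgr shRNA from 2.61 through 4.76 to 6.94. Means were 1.48 ± 0.245, 4.25 ± 2.32 and 4.90 ± 1.38 FPKM. Unlike C3, C4b was not lower in Gcgr shRNA than in Ctr shRNA: the fitted differences were 1.00 ± 0.23 and 1.22 ± 0.23 against control, and 0.22 ± 0.20 between the DKD groups, within the spread of the libraries.

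The top C4b value belonged to Ctr shRNA 20, the library with fat and urothelial transcripts. Without it the Ctr shRNA difference from control was 0.80 ± 0.17 and was still called, and the remaining 5 libraries lay between 2.57 and 3.79 FPKM. The deviations of C4b from its group means had r = 0.80 with those of the summed urothelium markers, 0.72 with fat and 0.64 with fibroblast markers over 17 libraries. Without Ctr shRNA 20 (n = 16) these r were 0.49, 0.26 and 0.51. The part of these tissues in the difference from control was not tested beyond leaving out that library.

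C4b has a paralogue on the same chromosome, C4a. Of the windows in the longest coding C4b transcript, 16.5% at 100 bases and 35.2% at 50 bases also occur in C4a. Reads could thus have been split between them. C4a was below the filter and is named here because of that shared sequence. It was at 1.73, 1.36, 0.902 and 0.822 FPKM in controls 37, 38, 39 and 41, at 0.221 to 0.520 in Ctr shRNA and at 0.375 to 0.624 in Gcgr shRNA, lower in both DKD groups without overlap. C4a made up 44.1% of the C4a and C4b sum in control, 8.32% in Ctr shRNA and 9.69% in Gcgr shRNA. The sum itself was 2.68 ± 0.601 FPKM, 4.60 ± 2.38 and 5.39 ± 1.38, so it was higher in the DKD groups by less than C4b alone. Whether C4a and C4b were assigned correctly was not tested.

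C2 and Cfb lie side by side on chromosome 17 (34862604 to 34898265 and 34856374 to 34862518) and encode the protease subunits of the classical and the alternative convertase. Their levels did not go together. Cfb was at 4.42, 6.18, 6.27 and 3.88 FPKM in controls 37, 38, 39 and 41. It ran from 2.04 FPKM through 2.79 to 4.18 in Ctr shRNA and from 2.76 through 3.37 to 4.79 in Gcgr shRNA. Only Ctr shRNA 19 reached the control range within its group, and 5 of 7 libraries labelled Gcgr shRNA were below every control. Means were 5.19 ± 1.22 FPKM, 2.86 ± 0.750 and 3.59 ± 0.733.

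The fitted Cfb difference was -0.68 ± 0.15 in Ctr shRNA, -0.42 ± 0.15 in Gcgr shRNA and 0.26 ± 0.13 between the DKD groups. The call in Ctr shRNA was lost without control 38 or control 39, the high pair, where the difference was -0.60 in both cases. C2 was at 3.43, 3.60, 3.28 and 3.36 FPKM in the controls, a narrow range. It ran from 2.80 FPKM through 3.52 to 4.80 in Ctr shRNA and from 3.13 through 4.16 to 5.62 in Gcgr shRNA, where 5 of 7 libraries exceeded the highest control. Its fitted differences were 0.10 ± 0.12, 0.23 ± 0.12 and 0.13 ± 0.11, none of them called.

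From these levels Cfb exceeded C2 in control, and C2 exceeded Cfb in the DKD groups. C2 made up 40.3% ± 5.66 of the sum of both in control (range 34.4 to 46.4), 57.2% ± 9.23 in Ctr shRNA and 54.2% ± 4.63 in Gcgr shRNA. Every library labelled Gcgr shRNA was at 49.6% or more, above every control, whereas Ctr shRNA 19 was at 40.1%. Both genes overlap a read-through model, Gm20547, which shares 81.0% of the 100-base windows of Cfb and 53.2% of those of C2. How reads in that overlap were assigned is not given in the sources used here, which makes both levels uncertain.

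The C1 proteases and their inhibitor differed between groups by less than their spread between libraries. Serping1 was the most abundant of the 9 genes in control, at 18.8, 13.4, 17.8 and 20.3 FPKM in controls 37, 38, 39 and 41. It ran from 11.8 FPKM through 21.8 to 36.7 in Ctr shRNA and from 11.9 through 16.2 to 25.7 in Gcgr shRNA. Both DKD groups thus held libraries above and below the whole control range. The fitted differences of Serping1 were 0.22 ± 0.26 and -0.05 ± 0.26 against control and -0.27 ± 0.23 between the DKD groups.

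C1s1, the C1s protease gene (chromosome 6, 124530345 to 124542359), was at 2.73, 1.78, 3.09 and 2.45 FPKM in the controls. It ran from 1.47 FPKM through 2.90 to 5.39 in Ctr shRNA and from 1.43 through 2.27 to 4.78 in Gcgr shRNA. C1ra, the C1r protease gene (chromosome 6, 124512405 to 124523443), was at 2.15, 2.23, 2.58 and 2.80 FPKM in the controls. It ran from 1.33 through 2.90 to 4.72 FPKM in Ctr shRNA and from 1.90 through 2.64 to 3.29 in Gcgr shRNA. For both proteases the control range lay inside the Ctr shRNA range. Fitted differences against control were 0.16 ± 0.27 and 0.01 ± 0.26 for C1s1 and 0.17 ± 0.18 and 0.04 ± 0.18 for C1ra. Of the C1ra windows 34.5% also occur in its paralogue C1rb, and of those of C1s1 7.90% occur in its most similar gene, C1s2, so a share of their reads is of uncertain origin.

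These 3 genes varied together from library to library. Over the deviations of 17 libraries from their group means, r was 0.92 between Serping1 and C1s1, 0.82 between Serping1 and C1ra and 0.87 between C1s1 and C1ra. The summed fibroblast markers (Pdgfra, Pdgfrb, Dcn, Col1a1, Col3a1 and Lum) went with them, at r = 0.96 for Serping1, 0.89 for C1s1 and 0.79 for C1ra. Without Ctr shRNA 20 and Gcgr shRNA 31 (n = 15) those values were 0.94, 0.83 and 0.69. Endothelium markers went with them too, at 0.77, 0.82 and 0.83 over 17 libraries and 0.65, 0.81 and 0.75 without that pair. For C1ra the endothelium sum was closer than the fibroblast sum with and without the pair, and without it the macrophage sum was closest, at 0.77. The fibroblast sum ranged from 15.2 to 24.1 FPKM in control, 8.36 to 39.3 in Ctr shRNA and 7.94 to 28.5 in Gcgr shRNA, with Lum below the filter and no marker at 0 in all libraries of a group. Ctr shRNA 20 was highest in its group for Serping1, C1s1 and C1ra, and Gcgr shRNA 31 was highest in its own for all 3. These r are descriptions over libraries that share a tissue and a scaling. The part of fibroblast, endothelial or macrophage content was not tested.

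Cd55 and Cfi encode the regulators of the convertases, and of their differences from control only that of Cd55 in Gcgr shRNA was called. Cd55 (chromosome 1, 130439027 to 130462744) was at 2.97, 2.94, 2.20 and 2.96 FPKM in controls 37, 38, 39 and 41. It ran from 2.91 FPKM through 3.77 to 4.14 in Ctr shRNA and from 3.21 through 3.86 to 4.59 in Gcgr shRNA. All libraries labelled Gcgr shRNA and 5 of 6 labelled Ctr shRNA were above the highest control. The fitted differences were 0.32 ± 0.10, not called, and 0.40 ± 0.09, called, with 0.08 ± 0.08 between the DKD groups. The Gcgr shRNA call was lost in 12 of 24 alternatives, limma voom (0.51 ± 0.14), rescaling (0.35 ± 0.11) and leaving out any single control among them, with the difference between 0.32 and 0.51 throughout.

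Cfi (chromosome 3, 129835884 to 129875332) was the least abundant of the 9 in every group. It was at 0.826, 0.835, 0.949 and 0.729 FPKM in the controls. It ran from 0.857 FPKM through 1.05 to 2.92 in Ctr shRNA and from 0.894 through 1.63 to 2.03 in Gcgr shRNA. Library 20 held the top Ctr shRNA value, and the other 5 were at 1.18 or less. Fitted differences of Cfi were 0.30 ± 0.18 and 0.43 ± 0.17 against control, neither called, and the former was 0.14 ± 0.12 without Ctr shRNA 20. Cfi gave only 26 to 122 reads per library, which limits its precision, whereas C3 gave 147 to 4521.

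**Figure D3:**
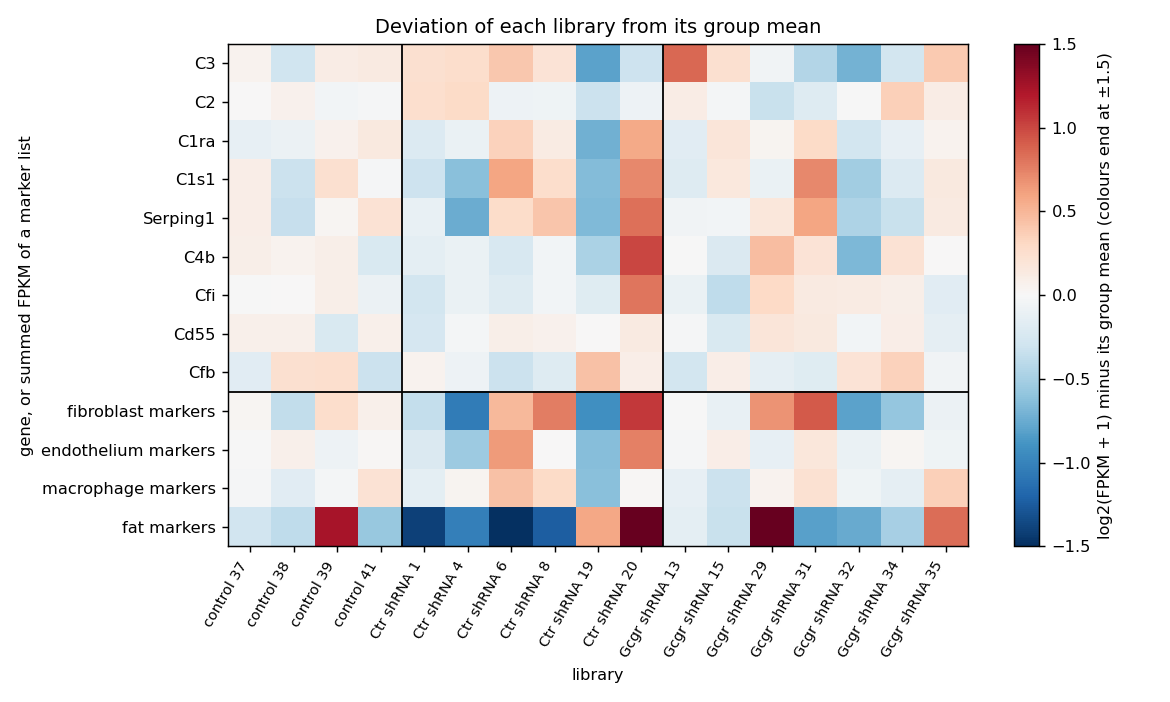
Deviation of each of the 17 libraries (columns) from its group mean in log2(FPKM + 1), for the 9 genes and for the summed FPKM of 4 marker lists (rows); red is above and blue below the group mean, with colours ending at 1.5. Serping1, C1s1 and C1ra share the pattern of the fibroblast row, with Ctr shRNA 20 and Gcgr shRNA 31 high, and the C3 row differs from theirs.

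Whether the other genes followed C3 between libraries was described by the Pearson r of deviations from group means, so that the group difference in C3 does not enter. Over 17 libraries r with C3 was 0.38 for C2, 0.29 for C1ra, 0.19 for Serping1, 0.18 for C1s1 and 0.04 for C4b. It was -0.31 for Cd55, -0.40 for Cfi and -0.64 for Cfb. Spearman's rho was 0.43 for C2, 0.15 for C1ra, 0.08 for Serping1, 0.14 for C1s1, -0.19 for C4b, -0.38 for Cd55, -0.63 for Cfi and -0.55 for Cfb. The middle 95% of the 13278 other genes tested ran from -0.55 to 0.56. Only Cfb lay outside that range, on the negative side, with 99.1% of genes at a higher r. The r also depended on the alternative taken. In alternatives other than leaving out a single library, r ran from -0.74 to -0.39 for Cfb and from -0.39 to -0.11 for Cfi. It ran from -0.32 to 0.05 for Cd55 and from 0.31 to 0.54 for C2. Thus the r of Cfb kept its sign but not its size, and that of Cd55 did not keep its sign.

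The r with C3 was negative within both DKD groups for Cfb, and also for Cfi and Cd55. Cfi was at -0.31 within Ctr shRNA and -0.58 within Gcgr shRNA, and Cd55 at -0.21 and -0.40. Within Ctr shRNA (n = 6) the r of Cfb was -0.91, with library 19 lowest in C3 and highest in Cfb, and library 6 the reverse. There the middle 95% of genes ran from -0.76 to 0.76. Within Gcgr shRNA (n = 7) the r of Cfb was -0.53, inside the range of -0.79 to 0.80, and library 13 was highest in C3 and lowest in Cfb. Without Ctr shRNA 19 and Gcgr shRNA 32, the libraries farthest from the median C3 deviation, the r of Cfb was -0.45 (n = 15), inside the range of most genes. The middle 95% of genes then ran from -0.55 to 0.58, and Cfi and C4b, both at -0.61, lay below it. Summed macrophage markers had r = -0.72 with Cfb over 17 libraries and 0.40 with C3, and summed proximal tubule markers 0.57 with Cfb and -0.50 with C3. Their part was not tested.

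No member followed C3 closely. C2 had r = 0.70 within Ctr shRNA, where libraries 1 and 4 were high in both and library 19 low in both, but r = 0.20 within Gcgr shRNA. C1ra went from 0.29 over 17 libraries to -0.38 without Ctr shRNA 19 and Gcgr shRNA 32, so its positive value rests on those libraries. Without Ctr shRNA 20 and Gcgr shRNA 31 instead, C1ra was at 0.63, Serping1 at 0.56 and C1s1 at 0.55. C4b turned from 0.04 to -0.61 without the 2 libraries farthest in C3, where its rho was -0.68. Without the pair that stands apart the r of C4b was 0.38, but its rho was 0.01. Leaving out a single library already turned the sign, with the lowest r at -0.11 for C1ra, -0.05 for Serping1 and -0.05 for C1s1, each without Ctr shRNA 19, and at -0.23 for C4b, without Gcgr shRNA 32.

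**Figure D4:**
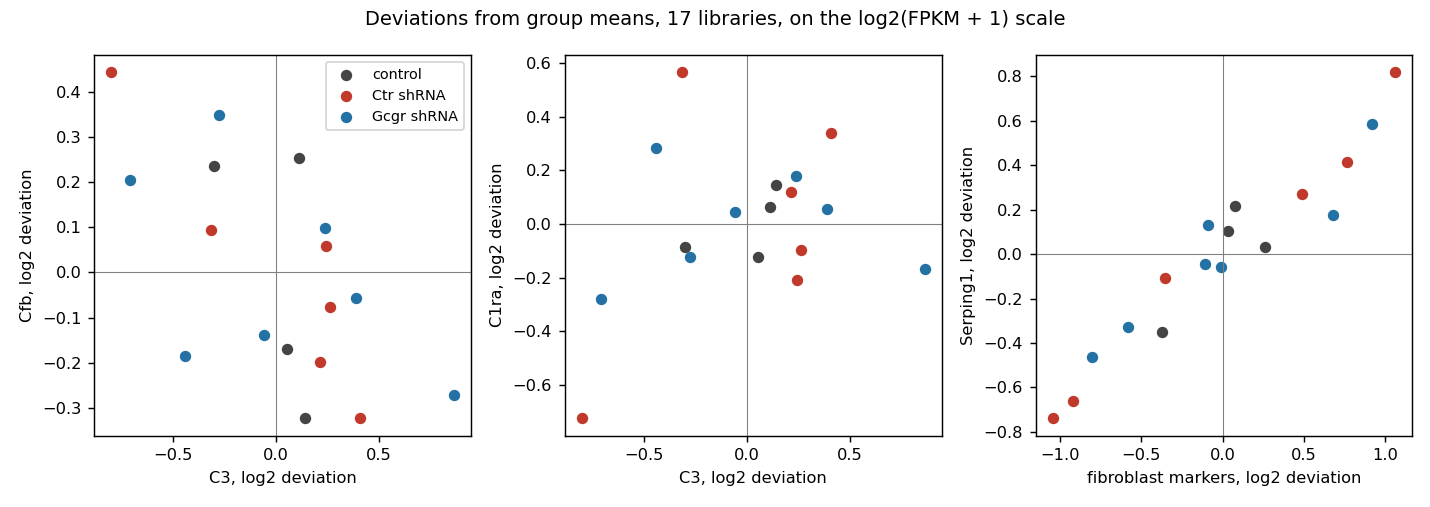
Deviations of the 17 libraries from their group means in log2(FPKM + 1) for Cfb against C3, C1ra against C3, and Serping1 against the summed fibroblast markers; colours give the groups. Cfb is lower where C3 is higher (r = -0.64), C1ra shows little relation to C3 (r = 0.29), and Serping1 lies along the fibroblast markers (r = 0.96).

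The 10 genes whose deviations went most closely with those of C3, leaving aside predicted genes and pseudogenes, were Rbm39, Ifngr1, Snrnp70, Med20, Plod1, Hcn2, Ippk, Nfya, Tmem209 and Nostrin, with r from 0.87 to 0.77 over 17 libraries. Rbm39, an RNA splicing factor, was at 0.87, and at 0.81 without the 2 libraries farthest in C3. Ifngr1, the ligand-binding chain of the interferon gamma receptor, was at 0.81 and 0.68. None of the complement genes was among them. Unlike C3, Rbm39 differed little between groups, at 23.9 ± 0.794 FPKM in control, 26.2 ± 1.27 in Ctr shRNA and 25.3 ± 2.43 in Gcgr shRNA.

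Other complement genes were read from a list of 44 that covers recognition, terminal components, regulators and receptors. Of these 17 passed the filter. None was called in any of the 3 comparisons, by limma-trend or limma voom. At an unadjusted p under 0.05 there were 8 in Ctr shRNA against control, beside 23.4% of all tested genes, and 6 in Gcgr shRNA against control, beside 16.2%. Between the DKD groups there was none, beside 7.32%. Their median fitted difference was 0.11, 0.24 and 0.04 in the same order. The groups did not overlap, with control lower, in 0 of the 17 in Ctr shRNA, beside 4.71% of all genes. In Gcgr shRNA it was 2 of the 17, C1qa and C1qc, beside 3.31%.

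Within each role the most abundant gene is described. C1qb, a chain of the recognition protein C1q, was at 19.8 ± 2.43 FPKM in control, 29.5 ± 9.96 in Ctr shRNA and 31.96 ± 9.96 in Gcgr shRNA, and was not called (adjusted p = 0.215 and 0.181 against control, limma). Mbl1, a lectin that starts the lectin route, was at 3.08 ± 0.952, 4.81 ± 1.29 and 3.87 ± 0.791 FPKM (limma adjusted p = 0.0855 and 0.459). Without Ctr shRNA 20 it was called higher in Ctr shRNA, by 0.60 ± 0.17 (limma adjusted p = 0.0402). C8g, a terminal pathway gene, was at 14.8 ± 1.46, 11.8 ± 3.28 and 13.7 ± 2.15 FPKM (limma adjusted p = 0.202 and 0.765). All of these overlapped between control and Ctr shRNA.

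Clu, a fluid-phase inhibitor of the terminal complex, was the most abundant complement gene on the list, at 117 ± 8.02 FPKM in control, 148 ± 36.8 in Ctr shRNA and 152 ± 54.3 in Gcgr shRNA (limma adjusted p = 0.507 and 0.583 against control). Itgb2, a chain of the complement receptor integrins of leukocytes, was at 1.15 ± 0.199, 1.86 ± 0.692 and 1.86 ± 0.380 FPKM (limma adjusted p = 0.144 and 0.190). Cfd, the protease that cleaves factor B and a known product of fat cells, was at 486 FPKM in Ctr shRNA 20 and at a median of 0.484 in its group, so its group mean describes that library. Macrophages are a known source of C1q, and the summed macrophage markers had medians of 32.5 FPKM in control (29.2 to 38.3), 51.3 in Ctr shRNA (32.005 to 68.2) and 50.8 in Gcgr shRNA (42.1 to 68.4). No macrophage marker was at 0 in all libraries of a group, and 5 of 8 were tested. The markers did not move as one: 2 were called higher and 1, Csf1r, lower in Ctr shRNA, and 2 higher and 0 lower in Gcgr shRNA (limma). Of all tested genes 3.58% were called higher and 3.91% lower in Ctr shRNA, and 1.42% higher and 0.595% lower in Gcgr shRNA. Csf1r, the receptor for the macrophage growth factor, was at 14.02 to 16.4 FPKM in control, 5.49 to 10.2 in Ctr shRNA and 8.36 to 12.2 in Gcgr shRNA, without overlap with control. Lyz2, a lysozyme gene, was at 10.2 to 17.5, 17.6 to 47.4 and 26.6 to 49.96 FPKM in the same order. Their part in C1q or C3 levels was not tested.

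**Figure D5:**
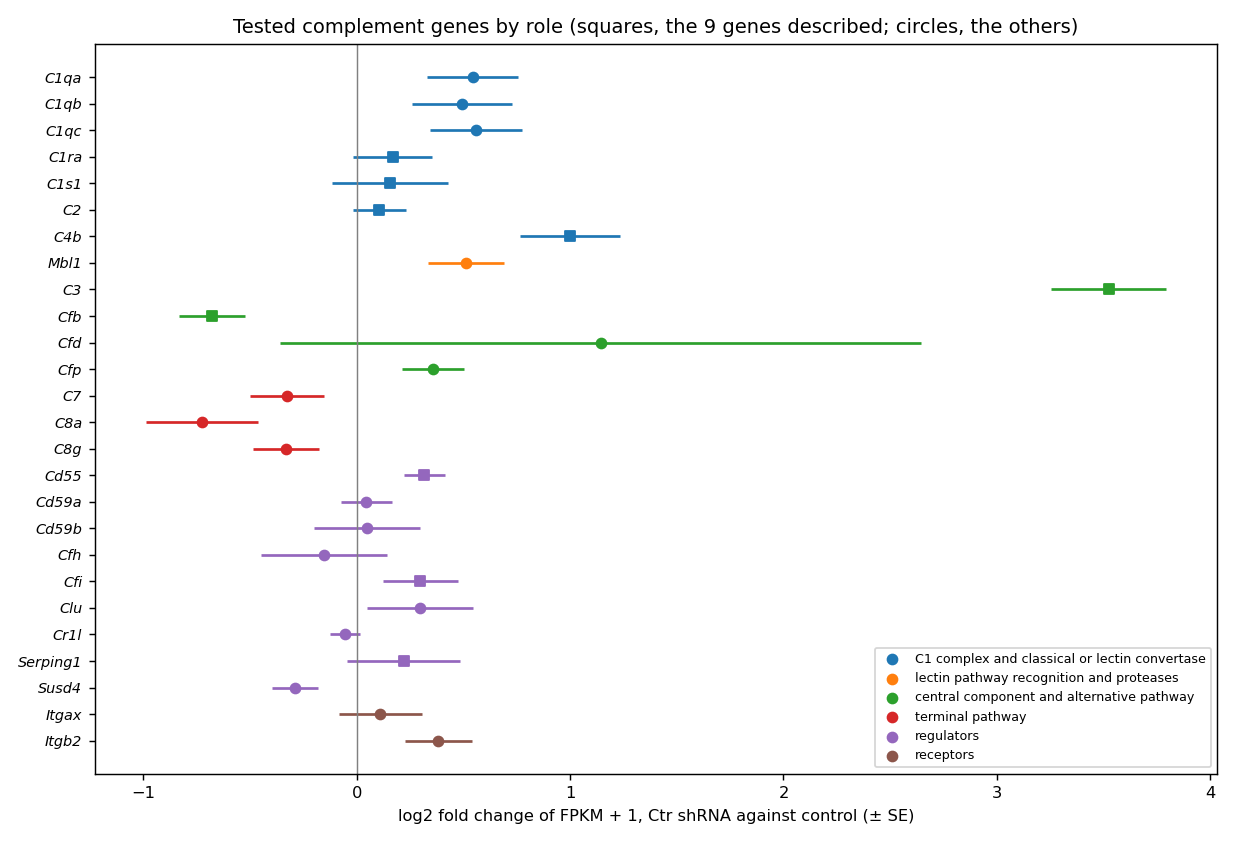
Fitted log2 difference of FPKM + 1 in Ctr shRNA against control (horizontal axis; bars are the SE) for the 26 complement genes tested, coloured by role, with the 9 genes described as squares and the others as circles. C3 stands alone at 3.53, C4b is next among genes with a small error at 1.00, and the terminal genes C7, C8a and C8g lie below 0.

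Of 28 genes listed as known inducers of complement transcription or as their receptors, 21 were tested. In Ctr shRNA against control 10 of 21 were called higher and none lower, beside 3.58% of all tested genes higher. In Gcgr shRNA against control 6 were called higher, beside 1.42%. None was called between the DKD groups by limma-trend or limma voom, and 1, Cebpa, had an unadjusted p under 0.05, at -0.35 ± 0.15. The list was drawn up with earlier results of these data known.

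Irf7, a transcription factor of the interferon response, was at 2.82 ± 0.136 FPKM in control, 13.6 ± 5.05 in Ctr shRNA and 14.4 ± 4.32 in Gcgr shRNA. It rose by 1.87 ± 0.23 in Ctr shRNA (log2, SE; limma adjusted p = 0.000198) and by 1.97 ± 0.23 in Gcgr shRNA (0.000102), with 0.10 ± 0.20 between the DKD groups, where C3 differed by -1.08 ± 0.23. Irf9, another transcription factor of the interferon response, rose by 0.71 ± 0.16 and 0.70 ± 0.15. Nfkb2, an NF-kB subunit, rose by 0.61 ± 0.14 and 0.58 ± 0.14, and Ifngr1 by 0.37 ± 0.11 and 0.47 ± 0.11. The limma adjusted p of Irf9, Nfkb2 and Ifngr1 lay between 0.0113 and 0.0484 in Ctr shRNA and between 0.0249 and 0.0348 in Gcgr shRNA. Of 25 alternatives, the Ifngr1 call held in 5 in Ctr shRNA and in 16 in Gcgr shRNA, with adjusted p up to 0.158 and 0.152. The Gcgr shRNA calls of Irf9 and Nfkb2 held in 17 and 16 of 25, while Irf7 was called in all 25 in both comparisons.

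Cebpa, a C/EBP factor, was at 23.1 ± 1.57 FPKM in control, 39.9 ± 10.2 in Ctr shRNA and 30.9 ± 6.28 in Gcgr shRNA. It was called higher in Ctr shRNA (0.73 ± 0.17, limma adjusted p = 0.0152) and not in Gcgr shRNA (0.38 ± 0.17, adjusted p = 0.264), and the difference between those groups had an adjusted p of 0.606. Of the cytokines, Ifng, Ifnb1, Tnf, Il1b, Il6 and Osm, 0 of 6 passed the filter. Ifnb1 had no read in the 17 libraries, Ifng was at 0 in 13 of them, and Il1b, the highest, reached at most 1.66 FPKM. These cytokines were not tested.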

How the data were processed

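Per the labels' protocols, kidney RNA was isolated in Trizol and sequenced from SMARTER mRNA-Seq libraries. The deposited file is the authors' table of FPKM per gene and library with gene coordinates and lengths, per the file headers. Per the submitters' processing notes the build was GRCm38, also called mm10. The sources used here do not give the aligner, counter, annotation release or use of strand. The table held 42794 complete gene lines, 31784 of them above 0, and 1 incomplete line was left out. FPKM times gene length was divided by a step fitted in each library, begun at the smallest value above 0. Low values (up to 200 reads) then came out as whole reads in 100% of cases, within 0.05 of a read. All reads summed to 13997657 to 17107876 reads per library. The library size implied by the step differed from that sum, as given above.

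Groups follow the genotype label, with 4, 6 and 7 libraries. FPKM was taken as log2(FPKM + 1), and genes with 1 FPKM or more in at least 4 libraries (13279) were fitted with limma-trend (limma 3.58.1, R 4.3.3), a mean per group over all 17 libraries, with Benjamini-Hochberg adjustment and a threshold of 0.05. The steps were tested on simulated data. The 9 members, the lists and the rules were chosen with earlier results of these data known, so the members have no p-value. Named besides the members are Gcgr, other complement genes called or most abundant per role, the 6 listed inducers with the smallest p among those called, the 10 genes most like C3 and marker genes where printed. One gene that this rule picks is not reported here. Correlations (Python 3.11.15) have no p. Shared windows were counted in GENCODE transcripts of GRCm38, and promoters come from RefSeq. Alternatives covered the pseudocount, filter, scaling, variance model, limma voom on recovered reads, groups in the fit and libraries left out. Chosen after seeing the data were 3 alternatives for the relation with C3: without the 2 libraries farthest in C3, without Ctr shRNA 20, and the 13 DKD libraries alone.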

Additional observations from a re-analysis of the deposited data

Results flagged for a closer look

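In 27 sets of values (each of the 9 genes in each of the 3 groups), a Dixon test at the 95% level marked 4 single libraries as far from the others; chance marks about 1 in 20 sets. C4b was at 1.11 FPKM in control 41, below the other controls at 1.56 to 1.62. C4b was at 8.90 FPKM in Ctr shRNA 20, above the rest of its group at 2.57 to 3.79. Cfi was at 2.92 FPKM in Ctr shRNA 20, above the rest of its group at 0.857 to 1.18. Cd55 was at 2.20 FPKM in control 39, below the other controls at 2.94 to 2.97. C3 had no such library in any group.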

How the results depend on the processing

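No paired analysis was possible because the numbers in the titles do not repeat between groups. C3 and C4b kept their direction and their calls against control in every alternative in which they were tested (25 and 24). The C3 difference between Ctr shRNA and control was 3.53 and reached 4.003 with limma voom. With a mean of 5 FPKM as the filter only C3 and Serping1 of the 9 were tested, and 1 of them, C3, was called in either comparison with control. Genes called in Ctr shRNA against control fell from 994 to 597 without a filter, and ranged from 458 to 1265 with single libraries left out; the low end was without control 39. In Gcgr shRNA against control they went from 268 to 155 without a filter, 154 at a mean of 5 FPKM and 438 with only both groups fitted, and ranged from 105 (without control 39) to 349 with single libraries left out. Between the DKD groups 0 became 1 with a pseudocount of 0.1, 1 at a mean of 5 FPKM and 1 with only those groups fitted, and 0 to 3 with single libraries left out. Of the other complement genes 0 became 2 without a filter and 1 without both libraries that stand apart in Ctr shRNA against control, with 0 to 3 for single libraries left out, most without Ctr shRNA 19. In Gcgr shRNA against control 0 became 1 without a filter and 2 with only both groups fitted. Depth limits Cfi.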

Other observations

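Some complement genes outside the 9 were called only in alternative fits, and are named after their values were seen. C3ar1, the receptor for a fragment of C3, was below the filter, with a mean of 0.209 FPKM for control (SD 0.122, n = 4), 0.663 for Ctr shRNA (SD 0.186, n = 6) and 0.612 for Gcgr shRNA (SD 0.123, n = 7). Control did not overlap either group. Without a filter it was higher in Ctr shRNA by 0.46 ± 0.09 (limma adjusted p = 0.0199). C4a, the paralogue of C4b, was lower in the same fit by -0.69 ± 0.11 (limma adjusted p = 0.0033) in Ctr shRNA and by -0.54 ± 0.10 (limma adjusted p = 0.0265) in Gcgr shRNA. C8a, a terminal pathway gene, was at 7.60 ± 0.718 FPKM in control, 4.53 ± 2.26 in Ctr shRNA and 5.48 ± 1.79 in Gcgr shRNA. Its Ctr shRNA difference was called without Ctr shRNA 19, which at 8.66 FPKM was the highest of all 17 libraries (-0.90 ± 0.23, limma adjusted p = 0.021). In the same fit the C1q chain genes C1qa (0.70 ± 0.18, limma adjusted p = 0.0248) and C1qc (0.72 ± 0.18, limma adjusted p = 0.0214) were called higher. Both were also called higher in Gcgr shRNA with only that group and control fitted (0.63 ± 0.13 and 0.66 ± 0.13, limma adjusted p = 0.0205 and 0.0207). C8g was called lower in Ctr shRNA without Ctr shRNA 4 (-0.45 ± 0.12, limma adjusted p = 0.0477). Mbl1 was called higher without both libraries that stand apart (0.60 ± 0.16, limma adjusted p = 0.0356).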
